A study of Canis lupus familiaris with 4 samples.

Results

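Labelled hypoxia was compared with labelled normoxia in cells labelled as HIF1A knockdown (KD) in a canine expression study, that is, the array labelled KD hypoxia minus the array labelled KD normoxia. These were 2 of the 4 arrays of the series, chosen by their sample titles. The other 2 arrays, labelled HIF1A wild type (WT) normoxia and WT hypoxia, are set beside them as a separate pair with no array in common. The cells were MDCKII, a widely used canine kidney line that grows as polarized epithelial sheets. Per the labels, all cells spent 24 h in normoxia and then another 24 h in normoxia or in hypoxia, and 100 ng of total RNA went into each Affymetrix array. The oxygen level, the way the knockdown was made, whether the line was 1 clone, and whether the arrays came from separately grown cultures are not given in the labels or files used here. With 1 array per group, no difference below has a replicate check, and no test or p-value is given.

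HIF1A is the oxygen-controlled subunit of the transcription factor HIF-1. In normoxia the prolyl hydroxylases EGLN1, EGLN2 and EGLN3 mark the HIF1A protein for VHL and degradation, while in hypoxia the protein is spared, pairs with ARNT and turns on genes of glucose uptake, glycolysis, acid export, mitophagy and blood vessel growth. Control is thus mainly at the protein, which these arrays do not measure. In kidney tubule cells this response is known for shifting energy metabolism from mitochondria to glycolysis.

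The knockdown label was checked on HIF1A itself. HIF1A read 3435 on the array labelled KD normoxia and 624.8 on the array labelled KD hypoxia, against 3651 and 674.7 on those labelled WT normoxia and WT hypoxia. Both arrays labelled normoxia were thus high and both labelled hypoxia low, with KD and WT side by side in each condition. The log2 difference, labelled hypoxia minus normoxia, was -2.43 in the KD pair and -2.41 in the WT pair. HIF1A thus divided the arrays by the oxygen label and not by the knockdown label, so all directions given here follow the labels and carry no check of their own. Whether labels were exchanged was not tested. If the arrays labelled KD normoxia and WT hypoxia had changed places, the values given here as hypoxia minus normoxia in the KD pair would be KD minus WT in hypoxia. Another HIF1A probe set read 155.3 and 21.6 in the KD pair. The lower value lies under an intensity of 46.3, the median of all values and the floor used here for a measured level, so the size of that difference was not measured.

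The low HIF1A signal was not shared by the genes around it. Among the 20 nearest measured genes, 10 on each side, the KD pair difference ranged from -0.46 (HSPA2) to 0.67 (DAAM1) with a median of -0.07, and 0 of the 20 differed 2-fold. The closest on the flanks, the amino acid transporter SLC38A6 and the small GTPase RHOJ, differed by -0.02 and 0.39. The 269 measured genes of the chromosome that carries HIF1A had a median of -0.06 in both pairs.

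The arrays looked alike in depth of signal and in cell identity. Median intensity was 45.6 to 47.1 per array, and 1065 to 1129 values per array were listed at exactly 1. Of 9 measured epithelial markers, 8 were above the floor on every array, and their summed intensity was 35601 to 36786. EPCAM read 9864 and 11319 in the KD pair and KRT18 read 12783 and 14418, while CDH1 (E-cadherin) was below the floor on all 4 arrays (17.8 and 41.1 in the KD pair). The fibroblast list had 3 of 10 members above the floor, VIM, CDH2 and FN1, which MDCK cells are known to express, and a summed intensity of 20517 to 23360. Its defining members COL1A1, COL1A2, COL3A1, PDGFRB, DCN, LUM and THY1 were below the floor. Endothelial markers summed to 195.2 to 295.9 with 2 of 5 above the floor, and leukocyte markers to 265.8 to 337.2 with 1 or 2 of 4 above it.

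Of 9834 genes that reached the floor on at least 1 of the 4 arrays, 55 (0.559%) reached a 2-fold higher value on the array labelled KD hypoxia than on the array labelled KD normoxia, and 98 (0.997%) a 2-fold lower one. At 1.5-fold, 335 (3.41%) were higher and 398 (4.05%) lower. The median of all 9834 differences was 0.02, and 5159 (52.5%) were above 0, the share to set beside each count of higher members below. Differences are of log2(intensity + 16), a scale that understates the change of dim genes. Both arrays of the pair were above the floor for 34 of the higher and 54 of the lower genes. The difference of 1 probe set varied around the mean of its gene's probe sets with an SD of 0.20, over 10111 probe sets of 4133 genes. This is a spread between probe sets on the same arrays, not between cultures.

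The lower and higher genes were sorted by their WT pair difference, with limits set at 0.5 and 1. Over all 9834 genes, 283 were at least 1.5-fold lower and 328 at least 1.5-fold higher in the WT pair. The shares of all genes there past 2-fold, at 0.5 to 1 and within 0.5 of 0 were not counted. The counts below thus have no background at their own limits. Of the 98 lower genes, 31 were also at least 2-fold lower in the WT pair and 20 were lower there by 0.5 to 1. Another 42 were within 0.5 of 0 in the WT pair, and 5 went the other way by 0.5 or more. For the 54 lower genes with both KD arrays above the floor, these counts were 21, 13, 17 and 3. The array labelled KD normoxia was the brightest of the 4 for 86 of the 98, a position that choosing lower genes favours. Among genes above the floor on both KD arrays, it was brightest for 49 of the 54 lower genes (90.7%) and for 26.9% of all genes. For 22 of the 98 it stood at least 2-fold above each of the other arrays, or 15 of the 54. The share of all genes with that pattern was not counted. Of the 55 higher genes, 23 were at least 2-fold higher in the WT pair too, 17 were higher there by 0.5 to 1, 13 were within 0.5 of 0 and 2 went the other way. For the 34 with both KD arrays above the floor, the first 3 of these counts were 17, 14 and 3.

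**Figure D1:**
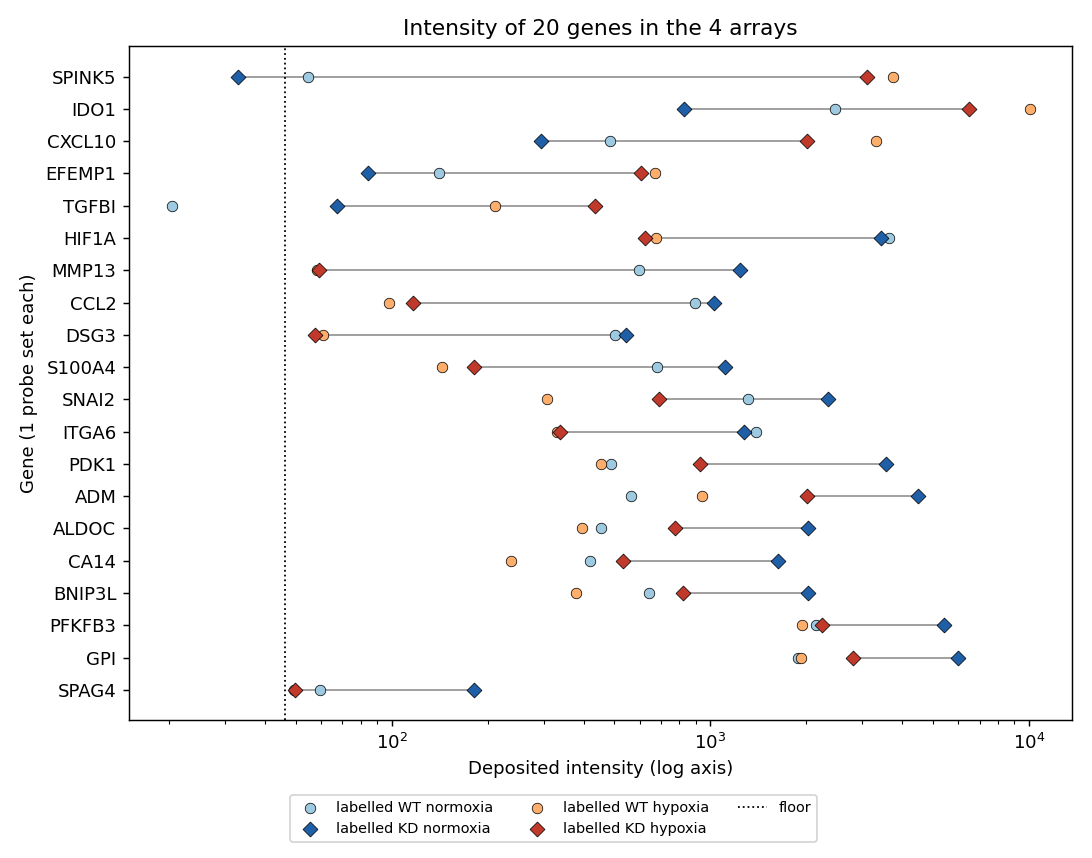
Deposited intensity (log axis) of 20 genes on the 4 arrays, with a line joining the array labelled KD normoxia (dark blue diamonds) to the array labelled KD hypoxia (red diamonds), circles for the arrays labelled WT, and a dotted line at the floor of 46.3. From SPINK5 to ITGA6 the 2 arrays labelled normoxia lie on one side and the 2 labelled hypoxia on the other, while from PDK1 to SPAG4 the array labelled KD normoxia lies to the right of all others.

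The genes higher in the KD pair were led by an epithelial protease inhibitor and by interferon-inducible genes. SPINK5, a Kazal-type inhibitor of skin kallikreins, read 33.0 on the array labelled KD normoxia and 3110 on the array labelled KD hypoxia, with 54.5 and 3751 in the WT pair. Its lower KD value was under the floor, and against the floor the difference was 5.65. IDO1, which starts the breakdown of tryptophan, read 828.5 and 6471 in the KD pair and 2461 and 10053 in the WT pair. Both arrays labelled hypoxia exceeded both labelled normoxia, and the KD pair started from a level below that of the WT pair. The difference was 2.94 (WT pair 2.02), and other IDO1 probe sets gave 3.76 and 3.29. CXCL10, an interferon-induced chemokine for T cells, read 293.7 and 2013 in the KD pair and 485.7 and 3304 in the WT pair, differences of 2.71 and 2.73. DLA-DQB1, a class II antigen presentation chain, read 81.5 and 205.0, a difference of 1.18 (WT pair 1.31).

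Most other interferon-stimulated genes differed much less. Of 38 that reached the floor, IDO1 and CXCL10 among them, 24 were higher and 13 lower in the KD pair, with 5 past 1.5-fold on the higher side and 3 on the lower. The list median was 0.09, against 0.25 in the WT pair. MX2 and IFI44L, which are induced by interferon in most cells, differed by 0.65 and 0.59. Other IFI44L probe sets gave 0.94 and 1.02 in the KD pair and 0.85 and 1.07 in the WT pair. STAT2 and IRF9, which carry the interferon signal to DNA, differed by 0.12 and 0.02. The exonuclease ISG20 went the opposite way, from 970.9 on the array labelled KD normoxia to 194.8 on that labelled KD hypoxia, a difference of -2.23. Its WT values were 326.5 and 152.4, so the array labelled KD normoxia stood above the other 3. The guanylate-binding protein GBP5 followed ISG20 with 257.1 and 145.2 (-0.76), against -0.10 in the WT pair. Within tryptophan metabolism, IDO2 (-0.56), the aminotransferase KYAT1 (-0.62) and the tryptophan ligase WARS1 (-0.48) were lower while IDO1 was higher, but each of the 3 had 1 of 3 other probe sets with a difference above 0. In all, 6 of 10 genes of that pathway were higher and 4 lower (median 0.05).

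Chemokines other than CXCL10 were mostly lower. CCL2, which attracts monocytes, read 1025 and 116.6 in the KD pair and 895.3 and 98.2 in the WT pair, a difference of -2.97. The 2 arrays labelled hypoxia were both low and did not approach those labelled normoxia. CCL17 read 5345 and 2743 (-0.96), CCL20 read 306.3 and 157.8 (-0.89), and the growth factor CSF2 read 2086 and 1306 (-0.67). CXCL8 read 57.8 on the array labelled KD normoxia and was listed at 1 on that labelled KD hypoxia, so no size is given. Of 16 chemokines and cytokines that reached the floor, 5 were higher and 11 lower, with a median of -0.35 (WT pair -0.66). That median depended on the floor, with -0.08 at the 25th percentile, -0.04 with no floor and -0.67 at the 75th percentile. In the NF-kappaB pathway list, 7 of 21 were higher and 14 lower (median -0.20). The subunit NFKB1 differed by -0.52 (other probe sets -0.04 and -0.30), the inhibitor NFKBIA by -0.36, and the targets SOD2, BIRC3 and CD40 by -0.64, -0.47 and -0.43. Prostaglandin synthesis had PTGS2 at -0.67 and the phospholipase PLA2G4A at -0.71, while the prostaglandin exporter ABCC4 was higher by 1.00 and the synthase PTGES by 0.47 (-0.05 as the median over its probe sets). No other PTGES probe set reached the floor on either KD array.

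Of 13 genes on the metalloproteinase list that reached the floor, 7 were higher and 6 lower (median 0.03), and only MMP13 was at least 2-fold lower. Of 20 on the serine protease list, 7 were higher and 13 lower (median -0.14), and only TFPI2 was at least 2-fold lower. Both lists include inhibitors. MMP13, a collagenase, read 1242 on the array labelled KD normoxia and 59.1 on that labelled KD hypoxia, with 598.3 and 58.2 in the WT pair. The arrays labelled hypoxia were close to the floor, and the larger KD difference (-4.07 against -3.05) came from the higher normoxia value. A further MMP13 probe set read 255.7 and 22.6, the latter below the floor, so its size was not measured. The gelatinase MMP2 differed by -0.47, TIMP1, an inhibitor of such enzymes, by -0.93 and the urokinase PLAU by -0.90. The Kunitz inhibitor TFPI2 read 155.5 and 11.6, the latter below the floor, which leaves a difference of at least 1.46 in size against the floor. PRSS23, a serine protease outside that list, read 314.0 and 89.1 (-1.65), and the least different of its other probe sets gave -0.28.

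DSG3, a desmosomal cadherin of stratified epithelia, read 542.1 and 57.3 in the KD pair and 503.4 and 60.8 in the WT pair (-2.93 and -2.76). Its partners differed less, with DSC2 at -0.42, the plaque protein PKP3 at -0.47 and periplakin PPL at -0.61. Envoplakin EVPL, which binds periplakin, was higher instead, reading 152.8 and 380.2 (1.23), with 259.9 and 302.8 in the WT pair. The KD pair thus reached past the WT values at both ends. ITGA6, the laminin-binding integrin subunit of hemidesmosomes, read 1276 and 337.3 (-1.87), and further probe sets above the floor were at -1.80 and -2.30. Its ligand chain LAMA3 differed by -0.83, its partner ITGB4 by -0.16 and the linker plectin PLEC by -0.46. The tight junction list had a median of -0.15 (WT pair 0.06), led by CLDN3 at -0.87 and the catenin CTNND1 at -0.49, with the polarity genes PRKCI and PATJ at 0.53 and 0.50 (other PATJ probe sets -0.03 and 0.20).

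Markers of epithelial-mesenchymal state did not differ as a block. SNAI2, a repressor of epithelial genes, read 2335 and 690.1 in the KD pair and 1317 and 306.3 in the WT pair (-1.74 and -2.05). S100A4, a calcium-binding protein linked to motility, read 1113 and 181.7 against 679.4 and 144.2 (-2.51 and -2.12). In both genes the KD value exceeded the WT value in each condition. Of the remaining 10 genes of that list, none differed 1.5-fold, with VIM at 0.04, FN1 at 0.12 (-0.15, 0.83 and 0.84 in dimmer probe sets), CDH2 at 0.22, TAGLN at -0.25 and the epithelial splicing factor ESRP1 at 0.26. The S100 family and annexins had 3 of 14 members higher and 11 lower, with 4 at least 2-fold lower. S100A2 read 4831 and 1886 (-1.35), S100P 4438 and 1894 (-1.22), and S100A16 247.0 and 99.0 (-1.19). S100A6 (0.03), ANXA1 (-0.01) and ANXA2 (0.04, another probe set -0.35) differed little.

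Of 25 matrix genes that reached the floor, 15 were higher and 10 lower, with a median of 0.13 (WT pair 0.18). EFEMP1, an elastic-fibre protein, read 84.2 and 604.4 in the KD pair and 140.7 and 671.2 in the WT pair (2.63 and 2.13). TGFBI, a matrix adapter named for its induction by TGF-beta, read 67.2 and 435.1 in the KD pair and 20.4 and 210.2 in the WT pair, with the WT normoxia value below the floor. The KD pair difference was 2.44. FBLN1 (0.76), FBLN2 (0.62) and the basement membrane chain COL4A2 (0.58) were also higher. The sulfatase SULF2 read 110.3 and 273.1 (1.20), although another probe set gave 0.15. The actin-linked FILIP1L read 266.4 and 929.1 (1.74) and RHOBTB1 read 56.9 and 200.8 (1.57, with another probe set at 0.25). Among TGF-beta family members, the activin antagonist FST read 3632 and 1455 (-1.31, WT pair -1.94), BMP4 differed by -0.99 and BMP2 by -0.65, while the BMP targets ID1 and ID3 were higher by 0.91 and 0.86. AXIN2, a feedback target of Wnt signalling, read 76.2 and 173.7 (1.04), but another probe set read 52.7 and 30.4, the latter below the floor.

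Iron handling genes had a list median of -0.14 (WT pair -0.02). Larger differences were seen in the metalloreductase STEAP2, its relative STEAP1 and the copper oxidases CP and HEPH. STEAP2 read 581.6 on the array labelled KD normoxia and 40.0, under the floor, on that labelled KD hypoxia, so its difference was at least 3.26 in size against the floor. Another STEAP2 probe set gave -0.96, and a further one read 105.4 and 14, the latter below the floor. STEAP1 read 206.4 and 22.1. Ceruloplasmin CP, which oxidizes iron for export, read 1813 and 680.4 (-1.39, WT pair -1.47), and its membrane-bound relative HEPH read 180.6 and 82.3, just past 2-fold lower (WT pair -0.63). The storage chains FTH1 and FTL differed by 0.06 and 0.14, and the importer SLC11A2 and the iron sensor ACO1 were both higher by 0.47 (another ACO1 probe set 0.06). Of 16 iron genes that reached the floor, 7 were higher and 9 lower, 4 of them at least 2-fold lower. The surfactant-associated genes SFTA2 (361.9 and 68.7) and SFTPD (324.9 and 116.5) were lower in both pairs as well.

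Glycolysis genes differed in the KD pair and hardly in the WT pair. Of 27 measured glycolysis and lactate export genes 24 reached the floor, and of these 19 were lower and 5 higher on the array labelled KD hypoxia. There were 9 at least 1.5-fold lower and 0 at least 1.5-fold higher. The median was -0.44 in the KD pair and -0.07 in the WT pair, and -0.70 in the KD pair when the median over each gene's probe sets was used. PDK1, a pyruvate dehydrogenase kinase, read 3568 and 926.6 in the KD pair and 488.2 and 455.3 in the WT pair (-1.93 and -0.10). A further PDK1 probe set gave -1.75 and -0.07. The array labelled KD normoxia was far above the rest, and that labelled KD hypoxia was still above both WT arrays.

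Several other enzymes of the pathway had the array labelled KD normoxia highest. The isomerase GPI read 6003 and 2810 against 1885 and 1932 in the WT pair (-1.09 and 0.04). PFKFB3, which makes the activator of phosphofructokinase, read 5420 and 2243 against 2148 and 1944 (-1.27), with another probe set at -1.52. The phosphofructokinase PFKL read 2143 and 1161 against 764.8 and 647.4 (-0.88), and its other probe sets gave -0.94 to -1.69. In these genes the array labelled KD normoxia was the highest, and the WT arrays differed little from each other. Aldolase ALDOC read 2031 and 773.2 against 452.8 and 394.2 (-1.38), and ALDOA differed by -0.72 (another probe set -1.41). Further down, GAPDH was at -1.14 (734.1 and 324.7). For several enzymes the brightest probe set, used here for the gene, differed less than dimmer ones on the same arrays. TPI1 was at -0.57 (another probe set -1.20), PGK1 at -0.74 (-1.50) and PGAM1 at -0.25 (-0.72). Enolase ENO1 was at -0.17, with other probe sets at -0.49, -0.99 and -1.59. LDHA, which makes lactate, was at -0.19 (-0.56), and the glucose transporter SLC2A1 at -0.33 (-0.59 and -0.94). The lactate exporter SLC16A3 was at -0.95. Hexokinase HK2 was at 0.04 in its brightest probe set and -0.67 in another. The pyruvate dehydrogenase chains PDHA1 (0.14) and PDHB (0.06) differed little.

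Other genes known to respond to hypoxia showed the same ordering of arrays in part. Of 37 measured intracellular response genes 30 reached the floor, 23 of them lower and 7 higher, with 10 at least 1.5-fold lower and 0 higher (median -0.28, WT pair -0.01). The carbonic anhydrase CA14 read 1633 and 531.1 against 418.0 and 236.8 in the WT pair (-1.59 and -0.78). The mitophagy receptor BNIP3L read 2029 and 822.7 against 641.0 and 377.6 (-1.29 and -0.74), and SPAG4, a nuclear envelope protein, 181.3 and 49.7 against 59.7 and 49.3 (-1.59). In all 3 the array labelled KD normoxia was at least 2-fold above every other. The transcription factor ZNF395 was at -1.09, the mTOR inhibitor DDIT4 at -0.87 and the oxidoreductase ERO1A at -0.66. Some members did not follow. ANKRD37 was high on both KD arrays (766.3 and 688.5) and low on both WT arrays (160.0 and 198.4), a KD difference of -0.15. CA9 (-0.06) and NDRG1 (0.26) differed little, and the lipid droplet protein PLIN2 was higher by 0.53.

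Secreted hypoxia factors were mixed. Of 12 that reached the floor, 9 were lower and 3 higher, with 4 at least 2-fold lower, CP among them (median -0.29, WT pair -0.13). Adrenomedullin ADM, a vasodilator peptide, read 4486 on the array labelled KD normoxia and 2017 on that labelled KD hypoxia, against 563.0 and 940.6 in the WT pair. Both KD arrays were above both WT arrays, and the pairs ran in opposite directions (-1.15 and 0.72). IGFBP6 read 303.0 and 127.7 (-1.15) and STC1, a calcium-regulating hormone, 623.0 and 320.4 (-0.93). The vascular growth factor VEGFA read 2428 and 2380 (-0.03, another probe set -0.35), and its lymphatic relative VEGFC was higher by 0.88 (WT pair 0.65).

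Of 13 HIF subunits and oxygen sensors that reached the floor, HIF1A among them, 10 were lower and 3 higher in the KD pair. There were 3 at least 1.5-fold lower and 1 at least 1.5-fold higher (median -0.32, WT pair -0.08). EGLN1 read 686.4 and 368.6 against 333.2 and 342.8 in the WT pair (-0.87 and 0.04), so the array labelled KD normoxia alone stood out. EGLN3 read 100.6 and 16.1 in the KD pair and was below the floor on the other 3 arrays. EGLN2 (-0.12, another probe set -0.44), the asparaginyl hydroxylase HIF1AN (-0.37), VHL (-0.31, another probe set 0.26), ARNT (-0.32) and the HIF antagonist CITED2 (-0.58) differed less. Among enzymes that hydroxylate collagen, P4HA1 read 1164 and 649.5 against 334.7 and 346.7 (-0.83), with other probe sets at -0.29 and -0.61, whereas P4HA2 (0.04, another probe set 0.47) and P4HB (0.11) differed less and P3H2 and the cross-linking enzymes LOX and LOXL2 were higher by 0.22, 0.30 and 0.74 (another LOXL2 probe set 0.05). KDM3A, a histone demethylase and known HIF target, was at -0.33.

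**Figure D2:**
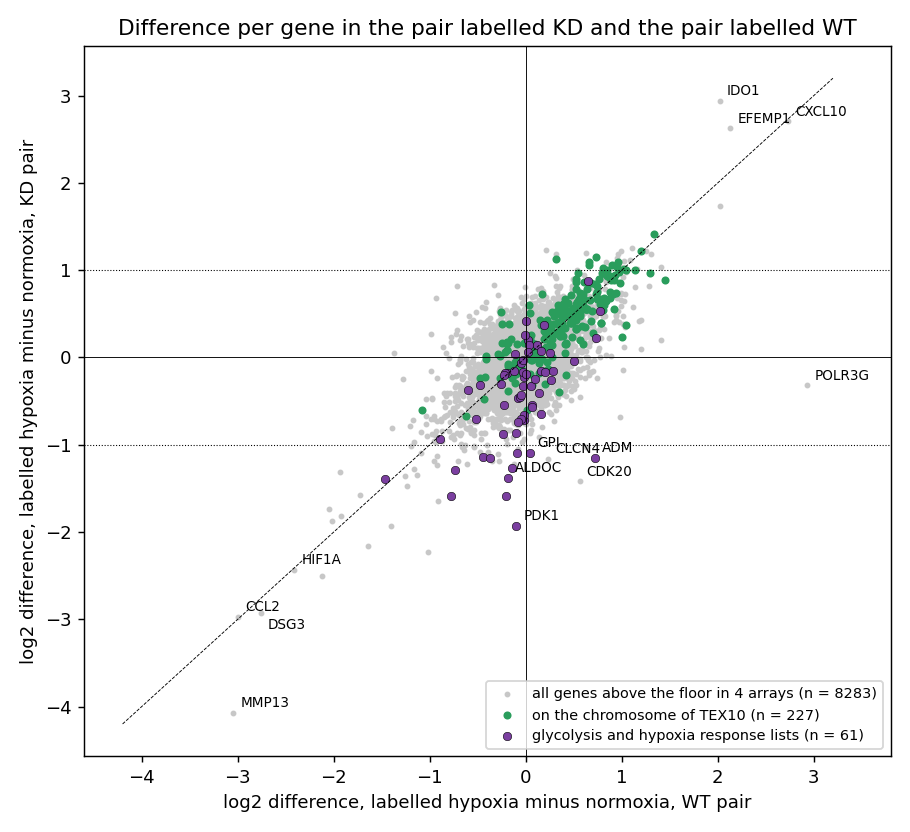
Log2 difference, labelled hypoxia minus normoxia, of each of 8283 genes above the floor on all 4 arrays, in the WT pair (x axis) and the KD pair (y axis); the dashed line marks equal differences and the dotted lines 2-fold in the KD pair. Many of the 61 genes of the glycolysis and hypoxia response lists (purple) trail downwards near 0 of the WT pair. Others lie away from 0 there, such as CP (-1.47) and ADM (0.72). The 227 genes of the chromosome that carries TEX10 (green) lie up along the dashed line.

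The ranking of the 4 arrays describes these lists in another way. It reuses the values behind the KD pair differences, so it is no separate support for them. Lists with mostly lower genes are favoured to rank the array labelled KD normoxia brightest, and lists with mostly higher genes the reverse. Over 8589 genes above the floor on both KD arrays, the array labelled KD normoxia was the brightest for 26.9%, and 11.3% had it brightest with the array labelled KD hypoxia next. For 23 glycolysis genes these shares were 78.3% and 52.2%, and for 28 intracellular hypoxia genes 67.9% and 39.3%. The glycolysis median was 0.48 above the mean of the WT arrays on the array labelled KD normoxia and 0.17 above it on that labelled KD hypoxia. Cholesterol synthesis genes had a like ranking, with 15 of 24 brightest on the array labelled KD normoxia and medians of 0.36 and 0.19 above the WT mean. The BCL2 family and the S100 list each had 10 of 14 brightest there. Ribosome biogenesis was the reverse, with 0 of 38 brightest on the array labelled KD normoxia and medians of -0.29 and -0.09. The array labelled KD normoxia enters every difference of the KD pair, so whatever sets that array apart from the others and a response of KD cells to oxygen cannot be told apart here.

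Among redox genes, GCLC, the rate-limiting enzyme of glutathione synthesis, read 336.4 and 821.4 in the KD pair and 1068 and 2316 in the WT pair. The log2 differences were 1.25 and 1.11, and both KD arrays were lower than their WT counterparts. The regulator NFE2L2 was higher by 0.69, the thioredoxin reductase TXNRD1 by 0.60, the glutathione reductase GSR by 0.60 and glutaredoxin GLRX by 1.12 (808.1 and 1770, with other probe sets at 0.71 and 0.37). Of 22 NRF2 and glutathione genes, 16 were higher and 6 lower, with a median of 0.19 (WT pair 0.12). The drug exporter ABCC1 (-0.85) and catalase CAT (-0.59) went the other way. ZFAND2A, a stress-induced zinc finger protein, read 548.4 and 1205 against 1146 and 2342 in the WT pair (1.11, with other probe sets at 1.04 and 0.38). Of 21 heat shock genes, 15 were higher and 6 lower (median 0.15), with HSPA4 at 0.67, HSPB8 at -0.57 and the small heat shock protein HSPB1 at -0.96 in both pairs. In the unfolded protein and ATF4 list, 18 of 28 were higher, led by the hormone FGF21 at 0.90, the folate enzyme MTHFD2 at 0.41, VLDLR at 0.37 and DDIT3 at 0.31, with the chaperone HSPA5 at -0.04.

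Growth and cell cycle genes shifted by small amounts. Ribosome biogenesis had 33 of 40 genes higher and 7 lower, a median of 0.24 against 0.11 in the WT pair, and 3 genes at least 1.5-fold higher. The RNA polymerase I subunit POLR1E read 387.4 and 878.4 (1.15), NHP2 differed by 0.60, POLR1C by 0.53 and WDR74 by 0.49, whereas nucleophosmin NPM1 was at -0.46. Genes of G2 and mitosis had 29 of 35 higher (median 0.15), with the phosphatase CDC25C at 0.85, CENPF at 0.60, UBE2C at 0.42 (-0.78 over its probe sets) and the survivin gene BIRC5 at -0.43. No other UBE2C probe set reached the floor on either KD array. S phase genes were split, 21 higher and 20 lower (median 0.00), with cyclin CCNE1 at 0.68 (another probe set -0.07), GINS3 at 0.39, CHAF1B at -0.29 and the polymerase POLE at -0.43 (0.01 over its probe sets). TXNIP, a glucose-sensing arrestin, read 2728 and 1163 in the KD pair and 2497 and 2302 in the WT pair (-1.22 and -0.12). In this TXNIP probe set it was thus the array labelled KD hypoxia that stood apart. Another TXNIP probe set gave -0.95 in the KD pair and -0.49 in the WT pair. MYC itself differed by 0.08.

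Lipid and mitochondrial lists had medians within 0.20 of 0. Cholesterol synthesis and uptake had 7 genes higher and 17 lower (median -0.08), with TM7SF2 at -0.86, the sterol sensor INSIG2 at -0.70 and EBP at -0.44, but the LDL receptor ligase MYLIP at 0.57. Fatty acid genes had 7 higher and 21 lower (median -0.13) and 0 that differed 1.5-fold, with PPARG at -0.51, ACSS2 at -0.37 (another probe set 0.28), LPIN1 at -0.35 (0.32 over its probe sets) and PLIN2 at 0.53. No other LPIN1 probe set reached the floor on either KD array. Of 37 nuclear genes of oxidative phosphorylation, 24 were higher and 13 lower, 0 differed 1.5-fold, and the range was -0.18 (ATP5F1A) to 0.30 (NDUFA9), with UQCRQ at 0.28, NDUFV2 at 0.25 and UQCRC1 at 0.23. In the BCL2 family, which governs apoptosis and includes BNIP3L, BCL2A1 was at -0.51, BCL2 at -0.47, BCL2L1 at -0.46 and BAK1 at 0.54. Of the ion transporters, the voltage-gated chloride channel family member CLCN4 read 432.4 and 185.4 (-1.16, another probe set -0.74), the carbonic anhydrase CA2 read 5906 and 2886 (-1.03, with other probe sets at -1.44 and -1.59), and the sodium channel chain SCNN1B read 87.5 and 9.34, the latter below the floor.

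**Figure D3:**
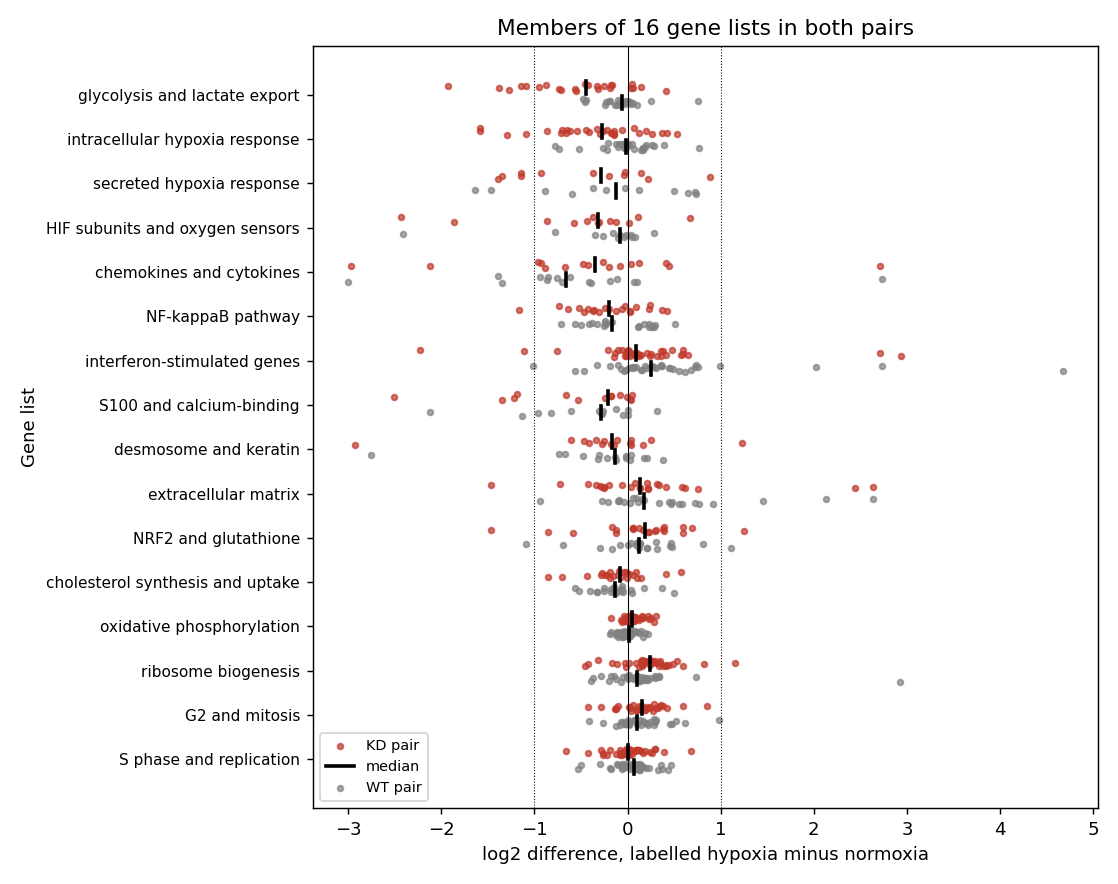
Log2 difference, labelled hypoxia minus normoxia, of the members of 16 gene lists that reached the floor on at least 1 array, in the KD pair (red) and the WT pair (grey), with a black bar at each median and dotted lines at 2-fold. The glycolysis median is -0.44 in the KD pair and -0.07 in the WT pair, and the oxidative phosphorylation members lie close to 0 in both.

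Genes of 1 chromosome were higher together. The grouping was made after the top genes had been seen, with gene positions taken from the RefSeq annotation of the dog assembly UU_Cfam_GSD_1.0, and no genome build was named for the array. Of 8126 placed genes above the floor on both KD arrays, 237 lie on the chromosome that carries TEX10. Their median difference was 0.39 (1.31-fold) in the KD pair and 0.39 in the WT pair, against 0.01 in each for the 7889 genes elsewhere. The medians of the other 38 chromosomes lay between -0.07 and 0.08 in the KD pair. On the chromosome of TEX10, 193 genes were higher and 44 lower, 176 were higher in both pairs, and 72 (30.4%) were at least 1.5-fold higher, against 140 (1.77%) elsewhere. It held 15 of the 55 genes at least 2-fold higher and 1 of the 98 lower. The median difference of labelled KD minus WT there was -0.0038 in normoxia and 0.014 in hypoxia.

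TEX10, a ribosome assembly factor, read 786.0 and 1652 in the KD pair and 947.4 and 1779 in the WT pair (1.06 and 0.90). ZNF618, a zinc finger protein, read 107.4 and 311.4 against 102.2 and 283.1 (1.41 and 1.34), and FSD1L 110.4 and 277.9 against 135.5 and 332.1 (1.22 and 1.20). Both arrays labelled hypoxia were high for these genes in each genotype. ALAD, an enzyme of heme synthesis, differed by 1.06 (another probe set 0.57), the natriuretic peptide receptor NPR2 by 1.09, CAAP1 by 1.09, TMEM245 by 1.04 and the chaperone cofactor DNAJC25 by 1.02. TGFBI, POLR1E, NHP2, CDC25C and HSPA4, given above with their lists, lie on the same chromosome. Without its genes the median of the ribosome biogenesis list was 0.22 instead of 0.24. Along the chromosome the shift was uneven. Its 5 consecutive blocks of 47 or 48 genes had medians of 0.27 (TRIM7 to PHAX), 0.31 (LMNB1 to CTNNA1), 0.36 (SIL1 to CCL27), 0.48 (CCL19 to TMEFF1) and 0.61 (MRPL50 to STOM) in the KD pair. The same blocks had 0.24, 0.37, 0.36, 0.48 and 0.61 in the WT pair. The part that this chromosome plays in the higher genes was not tested beyond these counts, and leaving out its genes left 40 at least 2-fold higher genes.

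**Figure D4:**
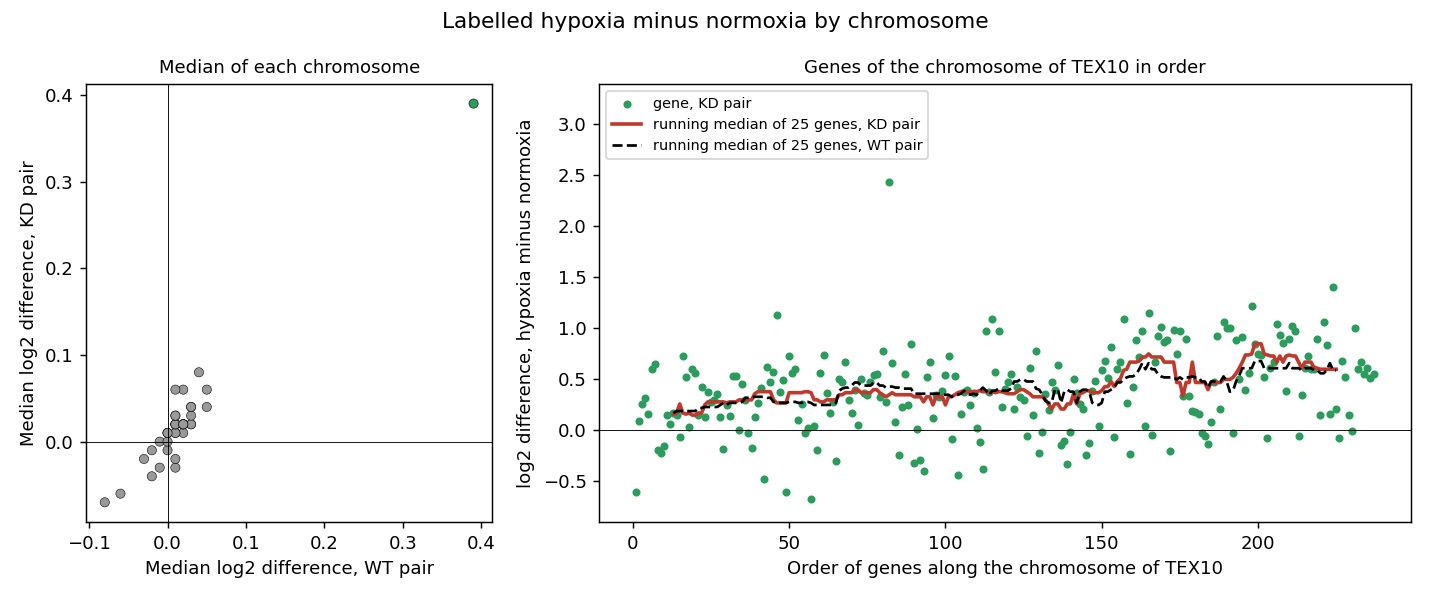
Left, median log2 difference, labelled hypoxia minus normoxia, of the genes on each chromosome in the WT pair (x axis) and the KD pair (y axis), with the chromosome that carries TEX10 in green. Right, the KD pair difference of the 237 genes of that chromosome in their order along it, with running medians of 25 genes in both pairs: the running medians climb from left to right and stay above 0.

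Some genes ran in opposite directions in the pairs. CDK20, a cyclin-dependent kinase, read 362.9 and 125.2 in the KD pair and 130.8 and 200.3 in the WT pair (-1.42 and 0.56). Other CDK20 probe sets gave 0.22 and -0.46 in the KD pair, so the gene's difference rests on 1 probe set. The mitochondrial ribosomal protein MRPL10 read 203.4 and 91.6 against 64.2 and 108.5 (-1.03 and 0.63). Together with ADM and CLCN4, these had the array labelled KD normoxia as the brightest of the 4.

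Other probe sets of the same genes gave the same direction in most cases. For the 55 higher genes, 28 other probe sets of 22 genes were available, of which 25 were higher too and 11 reached 2-fold (median 0.79). For the 98 lower genes, 44 probe sets of 34 genes were available, of which 40 were lower and 22 reached 2-fold (median -0.98). The probe sets were read on the same arrays, so they carry no information on the spread between cultures. Just inside the 2-fold limit lay MRPL50 (1.000), TMEFF1 (1.001), HEPH and LRRC8C (both -1.001), and just outside lay FBP1 (0.998), CDK5RAP2 (0.999), LYPD1 (-0.998) and ANKRD55 (-0.989).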

How the data were processed

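Expression was measured once in each of 4 arrays. The authors deposited 1 linear intensity per probe set. Which software, background correction and scaling made it, and any genome build, is not given in the sources used here. Of 42924 probe sets, 29254 had 1 gene symbol in the platform annotation, 439 had several and 13231 none. Values were turned to log2(intensity + 16) from the deposited intensities. Each of 15115 genes was represented by its brightest probe set (highest mean of the 4 arrays) and was kept if any array reached the median of all values (5.96, an intensity of 46.3), which left 9834. Differences are labelled hypoxia minus normoxia. An additive model over the 4 arrays would test the mean of both genotypes and not the KD pair, and was not run.

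The comparison and the 46 gene lists were chosen with earlier results of these data known. Named genes were HIF1A, the 30 largest differences per direction with both arrays of the pair above the floor, genes past 2-fold with 1 array below it, members of described lists, and genes that opposed the WT pair. Other scalings (quantile, median centring, cyclic loess), floors, pseudocounts, thresholds and the median over probe sets were tried. The grouping by chromosome and leaving out the genes of 1 chromosome were added after seeing the data. The 2-fold count rule was tried on simulated data with planted changes larger than 2-fold. The simulated noise was not taken from replicate cultures, so that trial checked only the counting. Python 3.11.15, numpy 2.4.6, pandas 2.3.3, and limma 3.58.1 in R 4.3.3 (cyclic loess only) were used.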

Additional observations from a re-analysis of the deposited data

Results flagged for a closer look

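Some genes above the floor on all 4 arrays had differences of opposite sign in the WT and KD pairs, each at least 0.20 in size. With 1 array per group these differences between pairs were not tested. The WT pair difference minus the KD pair difference was 1.98 for CDK20, 1.87 for ADM, 1.66 for MRPL10, 1.38 for CLCN4 and 0.52 for BHLHE41, a clock repressor. It was negative for MLXIPL (-1.01), a glucose-sensing transcription factor, for the protease receptor F2RL1 (-0.77), for the iron importer SLC11A2 (-0.68) and for the integrin chain ITGB6 (-0.59). MLXIPL read 53.9 on the array labelled KD normoxia, near the floor. Other SLC11A2 probe sets gave 0.33 in both pairs, and 0.57 (KD) with -0.24 (WT). Other ITGB6 probe sets gave -0.25 (KD) with -0.05 (WT), and 0.35 with -0.25. A further ITGB6 probe set was below the floor on the array labelled KD normoxia.

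Probe sets with no single gene name entered no count above. Of 6716 that reached the floor, 76 reached 2-fold higher and 76 reached 2-fold lower values in the KD pair (1.13% each), and 40 and 38 of these had both arrays above the floor.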

How the results depend on the processing

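With 1 array per group, no alternative brings a measure of spread between cultures, and arrays limit the precision by their number. The 55 higher and 98 lower genes became 52 and 98 with quantile normalization, 58 and 96 with median centring and 52 and 100 with cyclic loess, and no named gene or list median moved by more than 0.20 under these scalings. Counts depended on how dim genes were treated. The higher count was 104 with a floor at the 25th percentile, 104 with no floor, 28 with a floor at the 75th percentile and 34 with both arrays at or above the floor, as more or fewer genes entered. The lower count was 141 with the floor at the 25th percentile or none, 47 at the 75th percentile and 54 with both arrays at or above the floor. The median over probe sets gave 37 higher and 71 lower genes. A pseudocount of 1 gave 104 higher and 159 lower genes, a pseudocount of 64 gave 18 and 45, and a 3-fold threshold gave 7 and 26. Without the genes of the chromosome that carries TEX10 there were 40 and 97. That chromosome's median ranged from 0.28 (no floor) to 0.50 (floor at the 75th percentile).

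Of 241 genes with values kept for naming, 12 with a difference of at least 0.20 changed sign when the median over a gene's probe sets replaced the brightest, and the cause was not tested. These were CADM1 (-0.16), SH3BP5 (0.47), ITGB6 (-0.25), LPIN1 (0.32), POLE (0.01), UBE2C (-0.78), BHLHE40 (0.38), TCF7L2 (0.09), PTGES (-0.05), MLXIP (-0.23), KDM3B (0.30) and TET1 (-0.09). For LPIN1, UBE2C, TCF7L2, PTGES, KDM3B and TET1, no other probe set reached the floor on either KD array, so those medians rest on values below it. Of the list medians under all alternatives, 443 stayed within 0.20 of the value given, 16 moved further, among them S100 and calcium-binding genes (-0.43 over probe sets) and the glycolysis and chemokine lists as given above, and 0 of those at least 0.20 in size changed sign. No paired analysis was possible because the KD pair has no replicate of either array; an additive model over all 4 arrays would answer another question and was not run.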
